A study of Mus musculus with 32 samples.

Results

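The comparison set the hypothalamus of 8 Gpr101 knockout mice against that of 7 wild-type mice, all fed control diet, and took 15 of the 32 libraries of the series. The 15 libraries were chosen by their labelled genotype and diet, and no measured value entered the choice. Gpr101 encodes an orphan receptor, a receptor on the cell surface without an established natural ligand, and its gene lies on the X chromosome. It couples to the stimulatory G protein Gs, which raises cyclic AMP (cAMP) through adenylyl cyclase, and cAMP in turn activates protein kinase A and the transcription factor CREB. The receptor is abundant in neurons of the hypothalamus, the brain region that sets food intake, energy use, body temperature and the release of pituitary hormones.

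Every mouse was a male of the strain C57BL/6NTac. The knockouts carried the deletion on their single X chromosome (labelled Gpr101 ko, hemizygous), and the wild-type mice (labelled wt) were littermates. All ate standard chow until 7 weeks of age. The labels call the diet of both groups control, and 9 further knockouts and 8 further wild-type mice (17 libraries), used here to test whether the genotype difference depended on diet and, in the same fit, to estimate the spread between mice and to choose the genes tested, ate a diet with 60% of its energy from fat from that age. Of the control-diet mice, 5 knockouts and 6 wild-type mice were 149 days old and 3 knockouts and 1 wild-type mouse were 150 days old. Of the high-fat mice, 1 knockout and 1 wild-type mouse were 149 days old, and 8 knockouts and 7 wild-type mice 150 days old. Diet and age therefore largely went together. The labels name no Cre line or promoter, and give the tissue as hypothalamus without a nucleus. Each library was labelled as a separate mouse. In whole tissue, fewer cells of a type and less RNA per cell cannot be told apart.

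The libraries of the whole series held between 25.3 and 34.2 M reads on genes, with a median of 27.7 M, and those of the 2 control-diet groups had medians of 27.4 M (knockout) and 27.7 M (wild type). Markers of hypothalamic neurons were present, with a mean over the 15 libraries of 269.1 CPM (reads of a gene for every 1 M reads on all genes) for Avp, 221 CPM for Oxt, 174.5 CPM for Hcrt and 127.7 CPM for Pmch. In a principal component analysis of the 500 most variable genes other than Gpr101, the first component held 19.1% of the variance and did not separate the genotypes. Knockout replicate 1 (-21.5) and wild-type replicate 3 (-17.6) lay apart on it from the other 13 libraries (-5.1 to 9.8), and genes of the meninges and pituitary such as Slc13a4, Slc22a6, Fmod and Cga marked that end. The summed level of 14 meningeal markers was 70.7 to 348 CPM in the knockout and 81.6 to 240.7 CPM in the wild type, with these 2 libraries highest in their groups. That of 10 anterior pituitary markers was 3.00 to 13.1 CPM and 3.98 to 8.57 CPM, with Lhb at 0 reads in all 15, and that of 10 choroid plexus markers 36.5 to 50.6 CPM and 36.9 to 45.7 CPM.

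Gpr101 fell to 0 reads in the knockout. Wild-type libraries held 2605 to 3145 reads of the gene, which is 101.3 ± 3.72 CPM (SD, n = 7), and normalized counts (reads divided by the size factor of the library) of 2692 at the lowest, 2847 at the median and 2998 at the highest. All 8 knockout libraries were at 0 of 225.6 M reads together, where a count of 0 leaves room for 0.0133 CPM at most (3 reads over the group, counting error only). The knockout level was therefore at least 7614-fold lower. In limma the log2 fold change came to -11.47 with an SE of 0.12 and an adjusted p of 4.05e-49, and its size depends on the pseudocount of 1. Gpr101 lies on chromosome X of GRCm38 between 57496668 and 57503757 on the minus strand (ENSMUSG00000036357). In all 15 libraries the level matched the labelled genotype.

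Of the 14 other genes tested within 2 Mb on either side, none had an unadjusted p below 0.05. Their log2 fold changes ran from -0.09 to 0.24 with a median of 0.021. The nearest tested gene with a lower start, Rbmx, which encodes a splicing protein, had a value of 0.04 (SE 0.03), and the bombesin receptor gene Brs3 had a value of 0.04 (SE 0.12). On the other side, Fgf13, which binds sodium channels, had a value of 0.07 (SE 0.03).

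Gpr101 was the single gene of 19928 tested that passed an adjusted p of 0.05 (limma, Benjamini-Hochberg), which is 0.00502% of the genes tested. The next smallest adjusted p was 0.429. At an unadjusted p below 0.05 there were 394 genes with a higher value in the knockout (1.98%) and 427 with a lower value (2.14%), together 821 (4.12%), against 996.4 if no gene differed and the test were exact. The other 19927 genes had a median log2 fold change of -0.0003 with an SD of 0.147 and a range of -1.42 to 1.18. The measurement was narrow for most of them. The 95% interval lay inside a 1.2-fold change in either direction for 12277 genes (61.6%) and inside 1.5-fold for 16666 (83.6%).

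**Figure D1:**
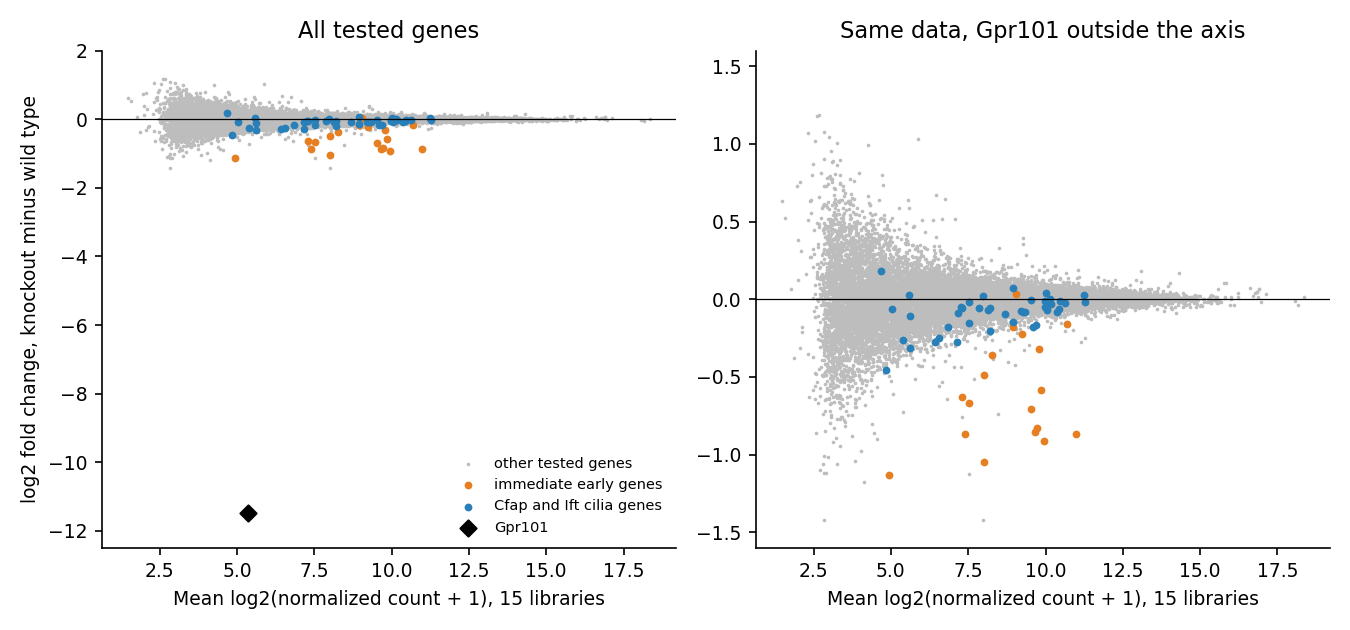
Each point is 1 of 19928 tested genes, with its mean log2(normalized count + 1) over the 15 control-diet libraries on the x axis and its log2 fold change (knockout minus wild type) on the y axis; the right panel shows the same data on a narrower y axis. Gpr101 sits alone at -11.47, every other gene lies between -1.42 and 1.18, and the immediate early genes (orange) lie mostly below 0.

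Expression did not overlap between the groups for 5 genes. The knockout was above the wild type for 2 (0.01% of the genes tested) and below it for 3 (0.0151%), Gpr101 among them. Among 19928 genes a few can separate fully even where none differs. The number to be expected was not computed. For Eif4ebp1, which encodes a repressor of cap-dependent translation that mTORC1 controls, the normalized counts were 27.2, 32.2 and 44.8 (lowest, median and highest) in the knockout and 14.9, 18.3 and 25.03 in the wild type. All 8 knockout libraries lay above all 7 wild-type libraries, and the log2 fold change was 0.80 (SE 0.18, limma adjusted p = 0.429). On high-fat diet the same contrast of Eif4ebp1 gave -0.003 (SE 0.17), and the test of the difference between the diets gave an unadjusted p of 0.00182 and an adjusted p of 0.999 (limma). Tpst2, an enzyme of the Golgi that adds sulfate to tyrosines of secreted proteins, had counts of 352, 375 and 403 in the knockout and 406, 422 and 447 in the wild type. Its groups were separate by a small step, with a log2 fold change of -0.17 (SE 0.05).

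The remaining genes without overlap carry provisional names and were picked out after their values were seen. 9530053A07Rik had counts of 5.09 to 16.4 in the knockout and 16.7 to 29.5 in the wild type (log2 fold change -0.98, SE 0.23, limma adjusted p = 0.695). The antisense transcript 4930556I23Rik had counts of 9.66 to 15.7 against 4.08 to 9.14. Both rested on few reads, and the strand setting of the counting is not given in the sources used here, so reads of the antisense transcript and of a gene on the other strand cannot be told apart.

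Ranked by unadjusted p among genes with an established symbol and a mean of at least 1 CPM over the 32 libraries, the 10 leading genes with a higher value in the knockout began with Eif4ebp1. None passed the test. After it came the zinc finger gene Zfp820 (0.52, SE 0.15), Cbln4, a secreted organizer of synapses (0.14, SE 0.04), the protease inhibitor gene Serpinb6b (0.64, SE 0.18) and the transcription factor gene Sp8 (0.52, SE 0.15), all as log2 fold changes. Serpinb6b had counts of 45.2, 53.9 and 80.8 in the knockout and 23.4, 34.5 and 47.5 in the wild type, and 7 of 8 knockout libraries lay above the highest wild-type library. Cbln4 had counts of 1257, 1304 and 1395 against 1086, 1197 and 1311, and 3 of 8 did. The other members were Ppp1ccb (0.13, SE 0.04), a transcribed pseudogene that may share reads with its parent gene, Smim17 (0.16, SE 0.05), Hpf1, a cofactor of PARP enzymes (0.12, SE 0.04), the non-coding RNA C78859 (0.13, SE 0.04) and Gucy1a1, a subunit of the nitric oxide receptor (0.11, SE 0.04).

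Among the 10 leading genes with a lower value were Jhy, Spag16 and Cfap161, all known from motile cilia. None of the 10 passed the test. Jhy, named for the hydrocephalus of its mutants, had counts of 44.4, 50.7 and 85.85 in the knockout and 62.1, 75.1 and 95.5 in the wild type (log2 fold change -0.43, SE 0.12). Of the knockout libraries 6 lay below the lowest wild-type library, while replicate 6 stood well above the rest. Ak9, an adenylate kinase, had 54.3, 71.5 and 84.8 against 78.5, 94.1 and 121.9 (-0.43, SE 0.12). For Ak9, 7 of 8 knockout libraries lay below the lowest wild-type library. Others were Prdm13, a transcription factor of dorsomedial hypothalamic neurons (-0.40, SE 0.12), Kxd1, which serves lysosome positioning (-0.14, SE 0.04), Spag16 of the axoneme (-0.36, SE 0.11), the calcium-binding potassium channel partner Kcnip3 (-0.11, SE 0.03), Dusp1 (-0.70, SE 0.21), the protease gene Pappa2, which frees insulin-like growth factors from their binding proteins (-0.42, SE 0.13), and Cfap161 (-0.28, SE 0.09).

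Feeding and neuroendocrine genes were given whether or not they differed. Of 20 such genes, all tested, none passed, and 2 had an unadjusted p below 0.05 in the lower direction (background 2.14%). Of the 20, 13 had a value below 0, against 50.2% of all genes. The 95% interval lay inside 1.2-fold for 8 of the 20 and inside 1.5-fold for 18. The agouti-related peptide neurons of the arcuate nucleus drive eating and make Npy and Agrp. Npy had counts of 190.5, 279 and 421 in the knockout and 248, 372 and 463 in the wild type, and 7 of 8 knockout libraries lay below the wild-type median (log2 fold change -0.38, SE 0.14, 95% interval -0.67 to -0.09, limma unadjusted p = 0.0123). Agrp had 62.6, 121.6 and 139.5 against 113.7, 131 and 165.4, with an interval of -0.60 to 0.03. For both genes the ranges overlapped.

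Pomc, the precursor of the melanocortin peptides, had counts of 1430, 2034 and 2395 against 1555, 2197 and 2898 (interval -0.42 to 0.22). Mc3r, a melanocortin receptor, had 113.5, 156.5 and 179.7 against 139.5, 192.8 and 209.3, and all 8 knockout libraries lay below the wild-type median (log2 fold change -0.24, SE 0.10, limma unadjusted p = 0.0179). Its contrast on high-fat diet was 0.13 (SE 0.09), and the difference between the diets had an unadjusted p of 0.00788 and an adjusted p of 0.999 (limma). Mc4r, the melanocortin receptor most tied to body weight, had 49.2, 80.2 and 101.3 against 62.4, 75.2 and 84.1 (interval -0.13 to 0.33). The insulin receptor gene Insr was the most tightly bounded of the 20, with an interval of -0.05 to 0.06, and the leptin receptor gene Lepr was among the loosest at -0.43 to 0.33.

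For hormone genes of the hypothalamus the intervals spanned 0. The interval ran from -0.15 to 0.09 for the somatostatin gene Sst, from -0.25 to 0.21 for Ghrh, which drives growth hormone release, and from -0.17 to 0.17 for Trh, which drives the thyroid axis. It ran from -0.26 to 0.20 for vasopressin (Avp), from -0.39 to 0.41 for oxytocin (Oxt) and from -0.15 to 0.57 for Crh, the head of the stress axis. The arousal peptide gene Hcrt (-0.11 to 0.36) and the melanin-concentrating hormone gene Pmch (-0.34 to 0.17) of the lateral hypothalamus also spanned 0. So did Cartpt (-0.18 to 0.13), Th (-0.24 to 0.45), Ghsr (-0.21 to 0.07), Gal (-0.24 to 0.09) and Brs3 (-0.20 to 0.28).

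**Figure D2:**
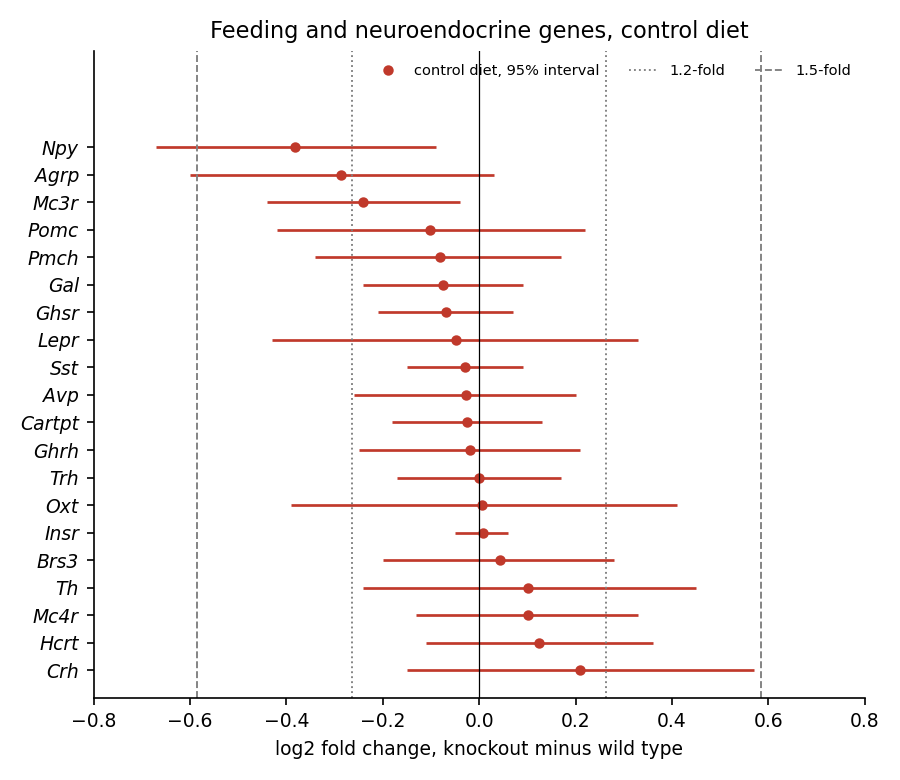
Points are log2 fold changes (knockout minus wild type, control diet, 8 against 7 libraries) of 20 feeding and neuroendocrine genes with 95% intervals from limma; dotted lines mark 1.2-fold and dashed lines 1.5-fold. The intervals of Npy and Mc3r lie wholly below 0, and 18 of 20 lie inside 1.5-fold.

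RNA levels of genes for signalling downstream of the lost receptor were examined next. Only RNA was measured, so the activity of the pathway was not tested. Of 30 genes of Gs and cAMP signalling other than Gpr101 (G protein subunits, adenylyl cyclases, phosphodiesterases, protein kinase A subunits and CREB cofactors), none had an unadjusted p below 0.05 and all 30 had a 95% interval inside 1.2-fold. Their median log2 fold change was 0.007, with a range of -0.04 to 0.12. The most distant was Crem, whose products include a repressor that cAMP itself induces, with a median count of 392.5 in the knockout and 351.5 in the wild type (0.12, SE 0.07). Counts per gene do not separate its products. None of the 10 adenylyl cyclases, 24 tested phosphodiesterases or 31 tested G protein subunits had an unadjusted p below 0.05. Of 15 listed Rgs regulators, which shorten G protein signals, 1 had a lower value at that threshold (6.7%, against 2.14% of all genes). Of 20 genes of leptin and insulin signalling none did, and 19 had an interval inside 1.2-fold.

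Immediate early genes, which neurons transcribe within minutes of a stimulus through CREB and serum response factor, had the lowest list median of all 100 lists and families described. No member passed over all genes. Of 18 members, all tested, 12 had a lower value at an unadjusted p below 0.05 (66.7%, against 2.14% of all genes), none a higher one, and 17 lay below 0 (50.2% of all genes did). The median log2 fold change was -0.65, against -0.0003 over all other genes, with a range of -1.13 to 0.03. The 12 were Dusp1, Fosb, Btg2, Ier2, Fos, Egr1, Nr4a1, Egr2, Klf4, Junb, Sik1 and Egr4, and the other members were Egr3, Nr4a3, Arc, Npas4, Jun and Ier5. These genes vary together within a mouse, so their number is not a number of independent observations.

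Most of the windows found for these genes held letters that CREB binds. The 250 bases before the transcription start are given for Dusp1, Fosb and Fos, the members of smallest p together with the best known one, from RefSeq windows on GRCm38.p6, 5′ to 3′ along the gene. Capitals mark the cAMP response element TGACGTCA and its core TGACG, on either strand.
Dusp1, chr17:26508473-26508722, minus strand: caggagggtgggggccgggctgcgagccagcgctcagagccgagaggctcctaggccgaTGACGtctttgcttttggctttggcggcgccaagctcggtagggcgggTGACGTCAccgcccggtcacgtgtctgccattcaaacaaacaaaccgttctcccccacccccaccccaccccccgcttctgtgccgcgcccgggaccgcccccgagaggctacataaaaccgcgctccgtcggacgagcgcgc
Fosb, chr7:19310046-19310295, minus strand: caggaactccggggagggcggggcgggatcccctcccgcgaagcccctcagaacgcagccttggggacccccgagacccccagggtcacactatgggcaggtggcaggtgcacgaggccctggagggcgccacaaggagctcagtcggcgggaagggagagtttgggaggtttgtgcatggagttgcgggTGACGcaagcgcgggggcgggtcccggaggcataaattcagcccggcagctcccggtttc
Fos, chr12:85473640-85473889, plus strand: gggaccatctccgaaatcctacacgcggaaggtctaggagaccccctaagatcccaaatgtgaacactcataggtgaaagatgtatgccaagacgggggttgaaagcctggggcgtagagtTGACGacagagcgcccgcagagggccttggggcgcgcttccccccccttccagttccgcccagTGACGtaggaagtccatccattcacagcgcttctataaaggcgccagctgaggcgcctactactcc
A window was found for 13 of the 18 genes. RefSeq and the gene annotation place the start differently for Dusp1, by 53656 bases, and for Nr4a1, by 12577 bases, and by at most 345 bases for the other 11. The full TGACGTCA, which contains the core once on each strand, was present in 2 of the 13 (15.4%), those of Dusp1 and Btg2, against 1.62% of 27025 windows of the same length. The core TGACG was present in 10 of 13 (76.9%) against 17.9%. Among genes lower at an unadjusted p below 0.05, Egr2 held no core. Btg2, Dusp1, Egr4, Fos, Fosb, Junb, Klf4 and Nr4a1 held at least 1. Among the others, Jun and Ier5 held none, and Npas4 and Nr4a3 held 2 and 4. No window was found for Egr1, Egr3, Ier2, Sik1 and Arc. Whether the core goes with the change was not tested. A match describes letters only, and the series holds no binding data.

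Fosb, a subunit of AP-1, had counts of 83.6, 184 and 404 in the knockout and 208, 375 and 603 in the wild type (log2 fold change -1.05, SE 0.32, limma unadjusted p = 0.00297). Fos had 310.3, 742 and 1625 against 746, 1461 and 2159 (-0.92, SE 0.31). For both genes 4 of 8 knockout libraries lay below the lowest wild-type library and the other 4 within its range. Dusp1, a phosphatase that switches off MAP kinases, had 418, 607 and 812 against 615, 915 and 1678, and all 8 knockout libraries lay below the wild-type median. Egr1, a zinc finger factor induced by synaptic activity, had 679, 1480 and 3031 against 1540, 3104 and 4384 (-0.87, SE 0.30). Ier2 had 87.5, 131.6 and 176 against 139.5, 218 and 459 (-0.87, SE 0.28), and 6 of 8 knockout libraries lay below the lowest wild-type library. Over the 12 members, between 4 and 6 of the 8 did.

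Npas4 and Arc, members tied closely to neuronal activity, were not among the 12 of the main fit. With age as a covariate, 16 of the 18 had a lower value at an unadjusted p below 0.05 (limma), where 426 of 19928 genes did. Which members reached that threshold therefore depended on the fit. Npas4, which depolarization induces through calcium entry, had counts of 288.5, 436 and 632 against 412, 514 and 683 (log2 fold change -0.18, SE 0.15, limma unadjusted p = 0.251). Arc, whose RNA travels to synapses, had 422, 530 and 743 against 525, 644 and 876 (-0.22, SE 0.13). Klf2, a factor best known from endothelium and outside the list, had 199, 287 and 360 against 308, 438 and 830 (-0.74, SE 0.25), and 6 of 8 knockout libraries lay below the lowest wild-type library. Among 16 cAMP-induced genes, a list that shares Dusp1, Fos and Nr4a1 with the immediate early genes, 5 had a lower value at an unadjusted p below 0.05 (31.2%, against 2.14%) and the median was -0.03. Of 15 genes of the delayed activity response, 4 did (26.7%, against 2.14%), Plk2 (-0.15, SE 0.06), Dusp6 (-0.27, SE 0.11) and Rasd1 (-0.21, SE 0.09) among them, with a median of -0.02. The clock gene Per1, which stimuli and glucocorticoids also induce, had median counts of 1798 and 2158 (-0.20, SE 0.09).

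The mean log2 value of the 18 genes per library was 7.93, 8.49 and 9.11 (lowest, median and highest) in the knockout and 8.56, 9.08 and 9.69 in the wild type, or 8.54 ± 0.49 (SD, n = 8) against 9.14 ± 0.40 (SD, n = 7). The groups overlapped between 8.56 and 9.11. Age moved with the level inside the knockout group. The 5 knockouts of 149 days lay between 7.93 and 8.63 and the 3 of 150 days between 9.01 and 9.11, whereas the 6 wild-type mice of 149 days spanned 8.56 to 9.69 and the single one of 150 days had 9.41. The difference of means was -0.87 among mice of 149 days (5 against 6) and -0.34 among those of 150 days (3 against 1). By runs of 8 consecutive sample numbers, whose meaning the labels do not give, it was -1.08, -0.99, -0.16 and -0.30, with 1 or 2 mice of a genotype in each.

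On high-fat diet, none of the 18 genes had an unadjusted p below 0.05 in the knockout against the wild type, where 5.15% of all genes passed that threshold and 2.67% did so with a lower value. The median of the 18 was -0.14. Most mice on that diet were 150 days old and most on control diet 149, so diet and age cannot be fully told apart. The difference between the diets was tested gene by gene. Of the 18, Fosb had an unadjusted p below 0.05 for it (0.0453, limma, adjusted p = 0.999), against 3.39% of all genes, and no gene of the 19928 passed after adjustment (smallest adjusted p = 0.999).

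**Figure D3:**
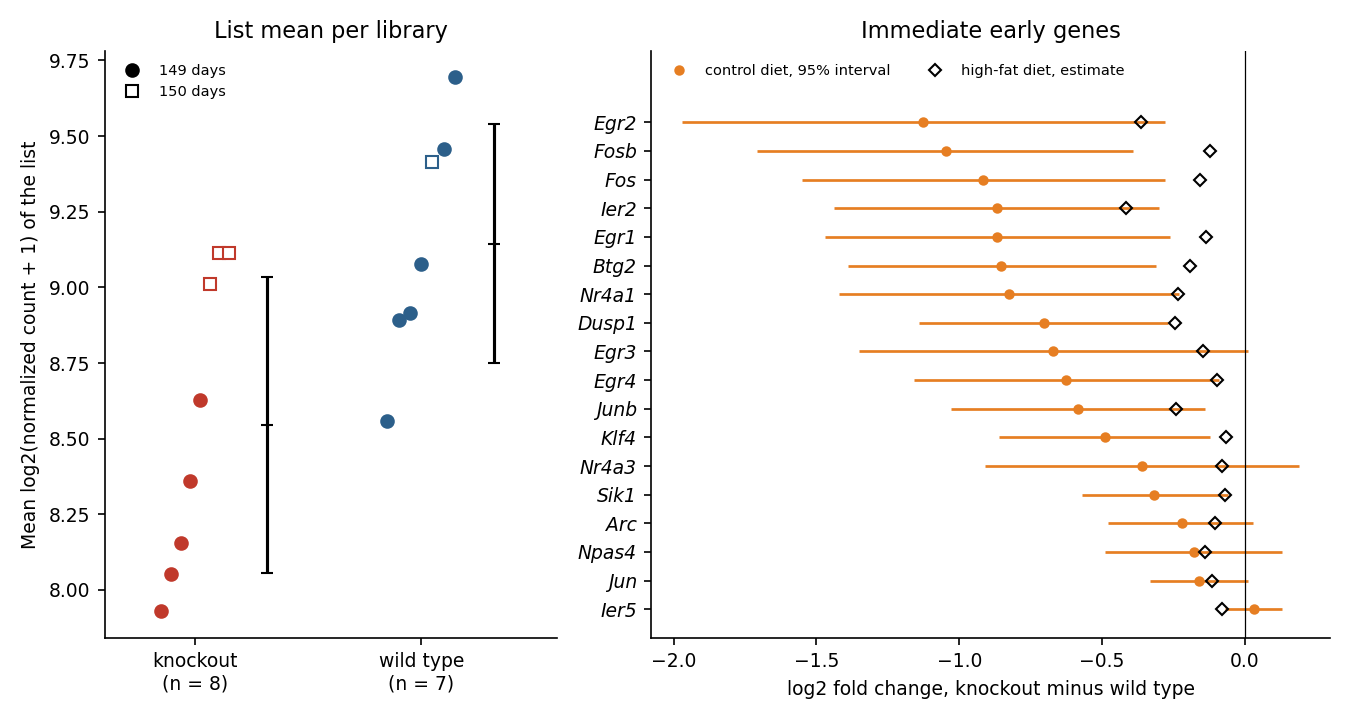
Left, the mean log2(normalized count + 1) of 18 immediate early genes in each control-diet library, filled circles for mice of 149 days and open squares for 150 days, with mean and SD beside each group; right, the log2 fold change of each gene with its 95% interval (orange) and the estimate on high-fat diet (open diamonds). The 5 knockouts of 149 days lie between 7.93 and 8.63, and 17 of 18 genes have a control-diet value below 0.

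Cilia genes also held several lower values. Ependymal cells line the third ventricle of the hypothalamus and beat cilia that move cerebrospinal fluid. The Cfap genes encode parts of cilia and flagella, and the Ift genes the trains that carry cargo along them. Of 45 such genes 44 were tested, none passed, and 10 had a lower value at an unadjusted p below 0.05 (22.7%, against 2.14%), none a higher one, with a median of -0.06 and a range of -0.46 to 0.18. The 10 were Cfap161, Cfap299, Cfap157, Cfap54, Cfap65, Ift140, Cfap43, Cfap44, Cfap52 and Cfap57. The count depended on single wild-type libraries: it was 5 without wild-type replicate 4 and 6 without wild-type replicate 5. With age as a covariate it was 7. The mean log2 value per library was 8.24, 8.35 and 8.45 in the knockout and 8.35, 8.43 and 8.55 in the wild type, so the groups overlapped between 8.35 and 8.45.

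Single members differed by small steps. Cfap161 had counts of 104.3, 128.3 and 173.3 in the knockout and 143.8, 156.2 and 169.3 in the wild type, with 6 of 8 knockout libraries below the lowest wild-type library and 1 above the highest. Cfap54, a part of the central apparatus of the axoneme, had 417, 473 and 522 against 475, 519 and 561 (log2 fold change -0.14, SE 0.06). Ift140, a subunit of the retrograde transport complex, had 1227, 1286 and 1386 against 1334, 1363 and 1421 (-0.09, SE 0.04). Of the ependymal markers 11 of 12 were tested, and all 11 lay below 0 (50.2% of all genes did) with a median of -0.12. Of the tested markers 36.4% had a lower value at an unadjusted p below 0.05, against 2.14% of all genes. Those with an unadjusted p below 0.05 were Rsph1, a radial spoke protein (-0.20, SE 0.08), Dnah11, a dynein heavy chain (-0.19, SE 0.09), Cfap54, which is in both lists, and Foxj1, the master regulator of motile ciliogenesis (-0.12, SE 0.06). Summed, the ependymal markers were at 111.5 to 132.4 CPM in the knockout and 113.6 to 151.8 CPM in the wild type. Of 56 tested kinesins and dyneins, 4 had lower values at that threshold (7.1%, against 2.14%), including Kif4 (-0.60, SE 0.22), Dnah10 (-0.16, SE 0.07) and Dnah11. On high-fat diet 1 of the 44 Cfap and Ift genes and 3 of the 11 ependymal markers had lower values at an unadjusted p below 0.05, against 2.67% of all genes, with medians of -0.02 and -0.07.

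**Figure D4:**
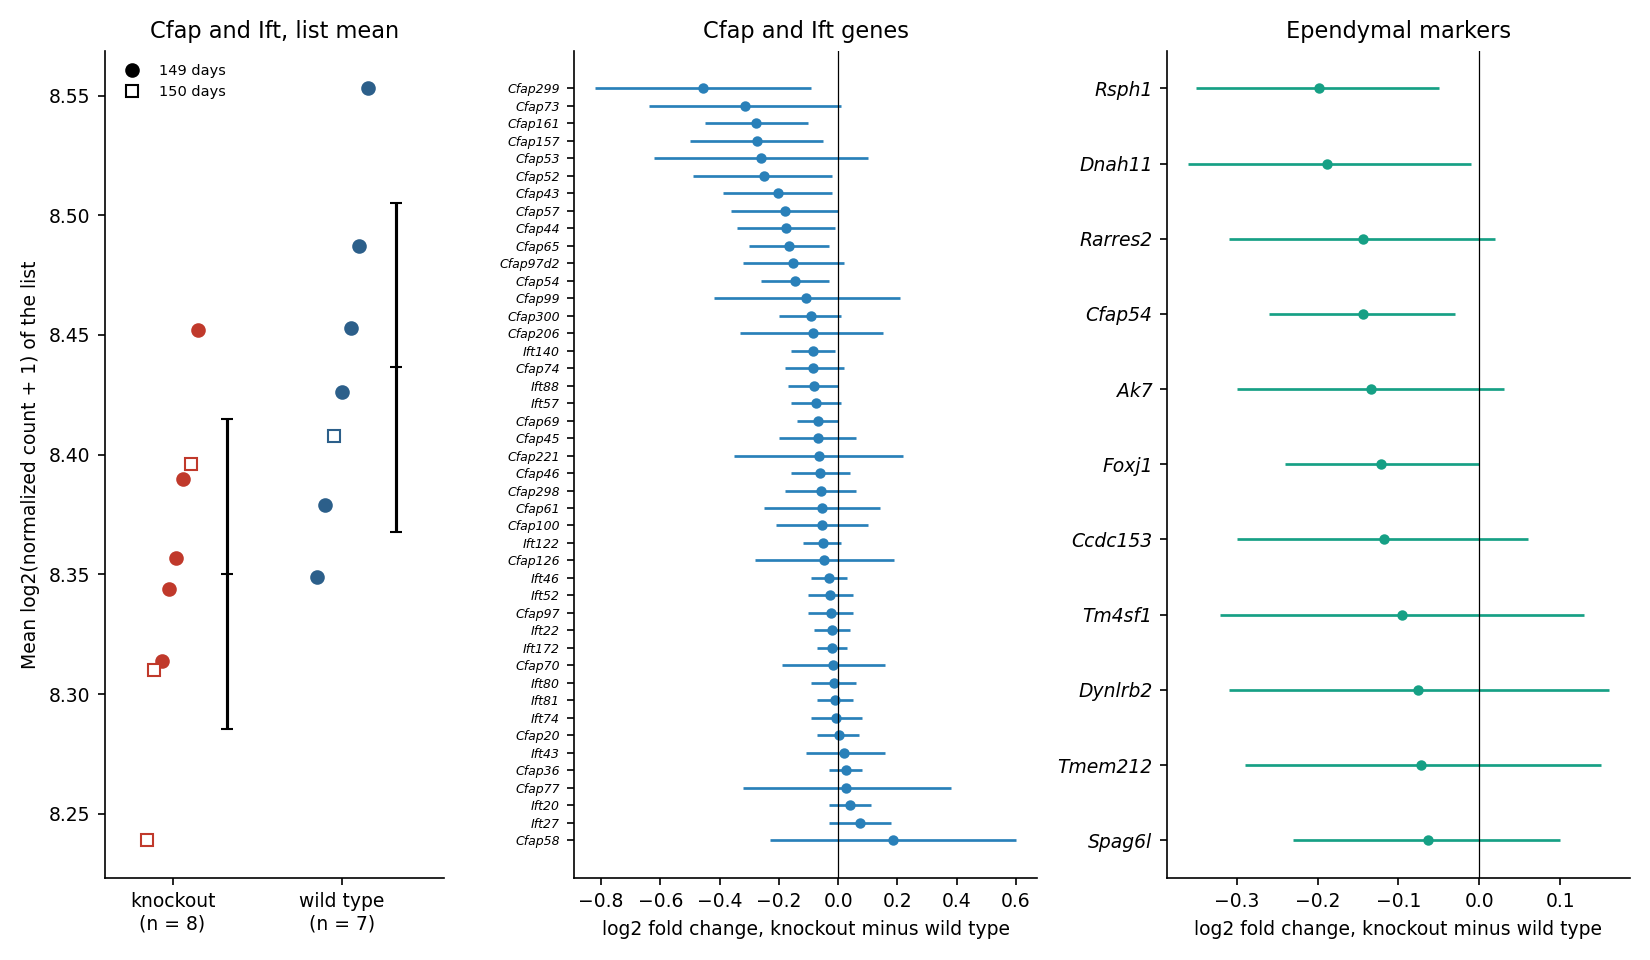
Left, the mean log2(normalized count + 1) of 44 Cfap and Ift genes per control-diet library with mean and SD (filled circles 149 days, open squares 150 days); middle and right, log2 fold changes with 95% intervals of the Cfap and Ift genes and of 11 ependymal markers. Group ranges of 8.24 to 8.45 and 8.35 to 8.55 overlap, and all 11 ependymal markers have a value below 0.

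The myelin genes of oligodendrocytes had all 15 values above 0 (49.8% of all genes did) with a median of 0.08, and 2 had a higher value at an unadjusted p below 0.05 (13.3%, against 1.98%). Hapln2, a matrix protein of the node of Ranvier, had counts of 890, 1070 and 1224 in the knockout and 807, 933 and 1032 in the wild type (log2 fold change 0.17, SE 0.06), and 5 of 8 knockout libraries lay above the highest wild-type library. Ermn, a cytoskeletal protein of myelin, had 1652, 1827 and 1943 against 1543, 1633 and 1833 (0.11, SE 0.05). The list mean overlapped between groups, at 11.63 to 11.89 and 11.56 to 11.77. Of 14 microglial markers, Trem2, a lipid-sensing receptor (0.23, SE 0.08), and Fcrls (0.18, SE 0.08) had higher values at that threshold (14.3%, against 1.98%), with a list median of 0.01. Of 14 astrocyte markers, the bicarbonate transporter gene Slc4a4 (-0.06, SE 0.02) and Aldh1l1 (-0.07, SE 0.03) had lower values (14.3%, against 2.14%), and all 14 intervals lay inside 1.2-fold. None of the 13 endothelial, 10 neuronal, 8 GABA neuron and 8 glutamate neuron markers had an unadjusted p below 0.05, and all 10 neuronal intervals lay inside 1.2-fold. On high-fat diet the median was 0.02 for the oligodendrocyte, -0.06 for the microglial and -0.03 for the astrocyte list. There, 4 of 14 microglial and 3 of 14 astrocyte markers were lower at that threshold, against 2.67% of all genes. Of 15 oligodendrocyte markers 1 was higher, where 5.15% of all genes passed in either direction.

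Markers of hypothalamic nuclei lay mostly within their error. In the arcuate list, 11 of 13 tested members had values below 0 (50.2% of all genes did), with a median of -0.05. Lower at an unadjusted p below 0.05 were 2 (15.4%, against 2.14%), Npy and Tbx3, a factor that maintains the identity of arcuate peptide neurons. Tbx3 had counts of 425, 455 and 500 in the knockout and 472, 513 and 750.1 in the wild type (log2 fold change -0.25, SE 0.09), and 5 of 8 knockout libraries lay below the lowest wild-type library. In the dorsomedial list 5 of 6 tested members had values below 0 (again against 50.2%), including Qrfp, an orexigenic peptide gene (-0.34, SE 0.15). In the ventromedial list 11 of 12 did (median -0.06), with none at an unadjusted p below 0.05. The tanycyte marker Nes had a value of -0.22 (SE 0.08). The thalamus borders the hypothalamus at dissection, and 11 of its 14 listed markers had values above 0 (49.8% of all genes did), with a median of 0.13. The median was 0.03 without knockout replicate 1, the highest knockout library for this list and one of the pair apart on the first principal component. The 14 markers had summed levels of 821 to 923 CPM in the knockout and 782 to 889.9 CPM in the wild type. Gbx2, a thalamic factor, had median counts of 24.8 and 10.8 (0.99, SE 0.52), and Calb2 of 8211 and 7575 (0.12, SE 0.06).

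Across the 48 lists and 52 families described, 94 had a median log2 fold change within 0.1 of 0, and 46 had no member with an unadjusted p below 0.05 in either direction. The 6 outside were the immediate early genes, ependyma, dorsomedial, thalamus, meninges and anterior pituitary lists. Of these, 5 came within 0.1 of 0 or turned sign when 1 library was left out. Ependyma, dorsomedial and thalamus kept their sign whichever library that was. The median came to -0.09 for ependyma without wild-type replicate 4, -0.05 for dorsomedial without wild-type replicate 5 and 0.03 for thalamus without knockout replicate 1. It ran from -0.10 (without knockout replicate 1) to 0.39 (without wild-type replicate 3) for meninges and from -0.11 (without knockout replicate 8) to 0.39 (without knockout replicate 2) for anterior pituitary, so that the sign turned. Nuclear genes of the respiratory chain lay mostly above 0 by a small amount. Of 37 complex I subunits 30 lay above 0 (49.8% of all genes did) with a median of 0.03. Of the 37, 3 had a higher value at an unadjusted p below 0.05 (8.1%, against 1.98%), Ndufv2 (0.06, SE 0.03), Ndufa6 (0.07, SE 0.03) and Ndufa11 (0.08, SE 0.04). Of 32 tested cytochrome c oxidase and ATP synthase subunits 26 lay above 0, with Atp5l at 0.14 (SE 0.06). The 13 protein-coding genes on mitochondrial DNA had a median of 0.02, none with an unadjusted p below 0.05.

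Of 33 tested histone genes 4 had a lower value at an unadjusted p below 0.05 (12.1%, against 2.14%), led by the near-identical copies Hist1h4j, Hist1h4m and Hist1h4n (-0.70 to -1.12 with median counts of 17.7 or fewer), among which reads may be split. In large families the shares were near the background of 1.98% higher and 2.14% lower. Of 370 tested Zfp genes 10 had higher and 10 lower values at an unadjusted p below 0.05 (2.7% each). Of 306 solute carriers 8 and 4 did (2.6% and 1.3%). Of 83 potassium channel genes 3 and 2 did (3.6% and 2.4%), and of 78 ribosomal protein genes 1 and 1 (1.3% each). Among the potassium channel genes, Kcnk4 had a value of 0.26 (SE 0.08) and Kcnj16 of -0.09 (SE 0.04). None of the 17 tested GABA receptor subunits, 20 ionotropic glutamate receptor subunits, 13 tested serotonin receptors, 11 Srsf and 20 Hnrnp splicing factors had an unadjusted p below 0.05. Of the nuclear receptors, Thrb, a thyroid hormone receptor, had a value of -0.13 (SE 0.05) and Nr2f1 of 0.15 (SE 0.06).

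**Figure D5:**
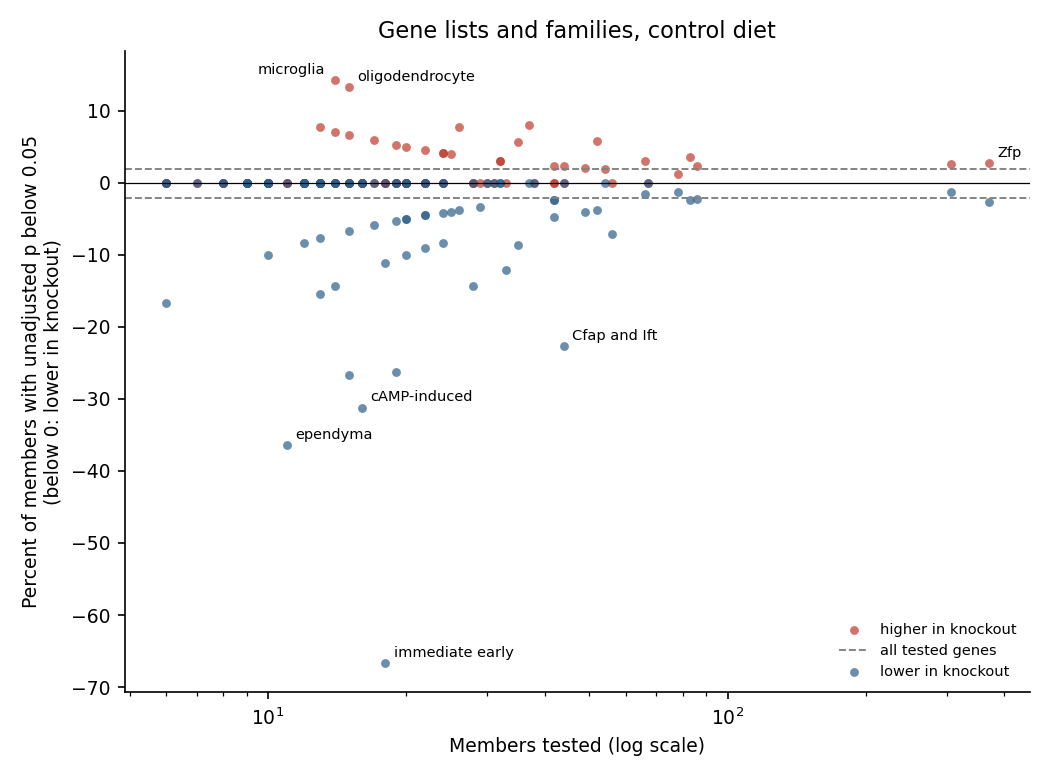
Each point is a gene list or family with at least 6 members tested, with the number tested on the x axis (log scale) and the percent of members with an unadjusted p below 0.05 on the y axis, plotted upward for higher and downward for lower values in the knockout; dashed lines mark all tested genes (1.98% and 2.14%). The immediate early genes stand lowest at 66.7% lower, followed by the ependymal markers at 36.4%.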

How the data were processed

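Total RNA from whole hypothalamus was sequenced on an Illumina NovaSeq instrument with a stranded paired-end protocol, per the labels' protocols. Trimming with Trim Galore 0.6.2 and cutadapt 2.10, alignment software STAR 2.7.6a, the checks of FastQC and the package DESeq2 1.28.1 in R 4.0.2 are named, with GRCm38 as build, in the submitters' processing notes. How reads were counted, and with which strand setting and annotation, is not given in the sources used here. Deposited values were on a log2 scale, each the log2 of a read count divided by a size factor of the library, with a count of 0 listed as log2 of 0.1. Reads recovered from them were whole for 100.0% of values within 1e-06. Of 55401 gene identifiers, 55141 had a symbol and position in the GENCODE GRCm38 annotation.

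Values were tested as log2(normalized count + 1) with limma 3.58.1 (R 4.3.3, statmod 1.5.0), with a mean for each of the 4 groups, no covariate, an intensity trend and robust moderation. Genes with a normalized count of 10 or more in at least 7 of the 32 libraries were tested. P-values were two-sided, and adjusted ones followed Benjamini-Hochberg over the 19928 genes with a threshold of 0.05. A fold change on this scale understates that of genes with few reads. CPM came from the recovered reads. No pair of libraries was treated as a repeat of 1 library.

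Gene lists, families and the rule for named genes were chosen with earlier results of these data known, so lists are described by counts and medians and carry no p. The rule takes Gpr101, the 10 higher and 10 lower genes of smallest p with an established symbol and a mean of at least 1 CPM, genes of that kind without overlap, the 20-gene panel, up to 3 members of each list and the tested genes within 2 Mb of Gpr101. Beyond it, immediate early, cilia, ependymal and oligodendrocyte members and both genes with provisional names were chosen after their values were seen. Not every gene under this rule is reported here. Alternatives changed the pseudocount, filter, scaling, libraries, covariates and test. Promoter windows came from RefSeq (GRCm38.p6). Figures were drawn with matplotlib 3.10.9.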

Additional observations from a re-analysis of the deposited data

Results flagged for a closer look

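Within a group of 7 or 8 mice, 1 library stood far from the nearest other for 8 of the 215 gene and list values checked, where chance flags about 1 in 20, or 10.8. In knockout replicate 1, a library with high meningeal markers, Lepr had a normalized count of 303, with 199.8 next, and Cfap43 of 379.5, with 281 next. In knockout replicate 6, Jhy was highest at 85.85 (62.6 next) and Trh lowest at 1862 (2317 next). In knockout replicate 4, the antisense transcript 4930556I23Rik was highest at 15.7 (11.5 next) and Dusp6 lowest at 338.5 (409 next). Among the wild-type mice, Arc was highest in replicate 7 at 876 (667 next), and Smim17 was lowest in replicate 6 at 1070 (1207 next).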

How the results depend on the processing

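Gpr101 was the single gene called under 12 of the 13 settings other than leaving out 1 library, with a log2 fold change of -11.483 to -11.457 when any 1 of the 15 control-diet libraries was left out. With every gene that had a read tested, 2 were called, the second being the pseudogene AC107710.1 on chromosome 19, with 0 reads in all 8 knockout and 1 to 4 in the wild-type libraries (adjusted p = 0.0332, limma). Genes at an unadjusted p below 0.05 then numbered 815 higher and 1010 lower of 41338, and 288 to 480 higher and 362 to 500 lower with 1 library left out. The interaction called 0 genes under every setting run. Genes without overlap between the groups numbered 2 with the filter at 50, 72 among mice of 149 days, 34 without both knockout replicate 1 and wild-type replicate 3 (a setting chosen after seeing the data) and 6 to 16 with 1 library left out, since fewer libraries separate more easily. Leaving out both gave 10 immediate early and 13 cilia genes lower at an unadjusted p below 0.05. With age as a covariate these counts were 16 and 7. With 1 library left out they were 11 to 15 and 5 to 13. Genes inside 1.2-fold numbered 11993 to 12145. Of 103 named genes other than Gpr101, none crossed the threshold in 2874 refits, and 37 refits changed the sign of a value whose 95% interval included 0. Of the medians of 100 lists and families, 1 moved by more than the SD between libraries (the Rgs list, to 0.014 among mice of 149 days).

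Replicate numbers 1 to 7 are shared by both groups. Same-numbered libraries correlated at -0.063 to 0.253, and 2 of 7 knockouts correlated best with their own number. The main test did not pair the mice by number, and these correlations cannot exclude a pairing. With the replicate block 1 gene was called, and Gpr101 had a log2 fold change of -11.471. The planned count tests, edgeR's quasi-likelihood test and DESeq2, were not run because the deposited unit is log2, and limma-voom on the recovered reads called 1 gene. At the median depth of 27.7 M reads, genes near the filter of 10 counts had the widest intervals.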
